A study of Mus musculus with 12 samples.

Results

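Pax2, Pax8, Lhx1, Cdh16, Cdh1, Epcam, Gata3, Krt8 and Krt18 are genes of the mesonephric tubules and ducts beside the fetal gonad, and of the supporting-like epithelial cells that join the testis to them. They were taken by symbol, from a list drawn up with earlier results of these data known, and are 9 of the 24470 genes counted in this series. The series measured RNA of E14.5 mouse testes by stranded mRNA sequencing, to ask what the loss of the nuclear receptor NR2F2 (COUP-TFII) from somatic progenitors does to the testis. Control testes were Nr2f2 f/f and cKO testes were WT1creER; Nr2f2 f/f, so both carried the floxed alleles and differed by the tamoxifen-inducible Cre, which is driven from Wt1. Pregnant females received tamoxifen on consecutive embryonic days before the fetal Leydig cells emerge, according to the methods of the study. Each group had 6 libraries, each from 3 pooled testes, and the litters of the pools are not given in the labels. Whether the adjoining mesonephros was removed before RNA was extracted is not given in the sources used here, which limits what the level of a mesonephric gene can be taken to measure. Wt1 is active in the surface epithelium and its descendants, so interstitial, Sertoli and supporting-like cells could carry the deletion, and a pool mixes them with germ cells and endothelium, which are not of that origin.

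Mesonephric tubules and the Wolffian duct arise from the intermediate mesoderm under the control of Pax2, Pax8, Lhx1 and Gata3. The tubules nearest the gonad join the rete testis, whose lining is laid down by Pax8-positive supporting-like cells, and sperm later leave the testis by this route. The epithelium of these structures is held together by cadherins and EPCAM and is filled with the keratins 8 and 18. Several of the genes are not particular to it. Fetal germ cells are also known to express Cdh1, Epcam and Lhx1, and the keratins 8 and 18 are also known from fetal Sertoli cells, granulosa cells and the surface epithelium.

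Total counts per library ran from 7044531 to 59404778. Levels are given in CPM, counts scaled to the TMM-adjusted size of the library, and a gene passed the test where edgeR's quasi-likelihood test gave an adjusted p under 0.05 over the 15572 genes tested. Of these, 510 (3.28%) were higher and 756 (4.85%) lower in cKO testes, 8.13% together. Nr2f2 ran from 163 to 186 CPM in control libraries and from 50.2 to 119 CPM in cKO libraries, so that transcripts remained in every cKO pool. Xist, which is transcribed from an inactive X chromosome and so is a mark of XX cells, was at 304 to 891 CPM in control library 1 and cKO libraries 3, 5 and 6, and at 5.15 to 7.68 CPM in the other 8. The 4 libraries with high Xist also had less of the Y-linked genes Ddx3y, Eif2s3y, Kdm5d and Uty (a sum of 197 to 258 CPM, against 287 to 445 CPM). They stand apart from the rest, and results are therefore also given for the other 8, below called the low-Xist libraries, of which 5 were control and 3 cKO. Because litters are not given, p-values measure only the spread between these pools.

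All 9 genes had a fitted change above 0 in cKO testes, where 50.6% of all genes tested did, and 3 of them passed the test. Lhx1 rose by 0.85 on the log2 scale, Cdh1 by 0.50 and Pax8 by 0.47, 3 of 9 genes where 3.28% of all genes were called higher. None of the 9 had groups that did not overlap, which 372 of the genes tested (2.39%) had in the higher direction, 488 (3.13%) in the lower and 5.52% in either. The median change of the 9 was 0.50, and that of all genes tested was 0.00. CPM is a share of the library. In bulk tissue, more cells of a type, more RNA per cell and fewer cells of other types cannot be told apart. The study reported fewer interstitial cells and fewer fetal Leydig cells in cKO testes at E14.5. Whether that loss has a part in the changes given here was not tested.

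**Figure D1:**
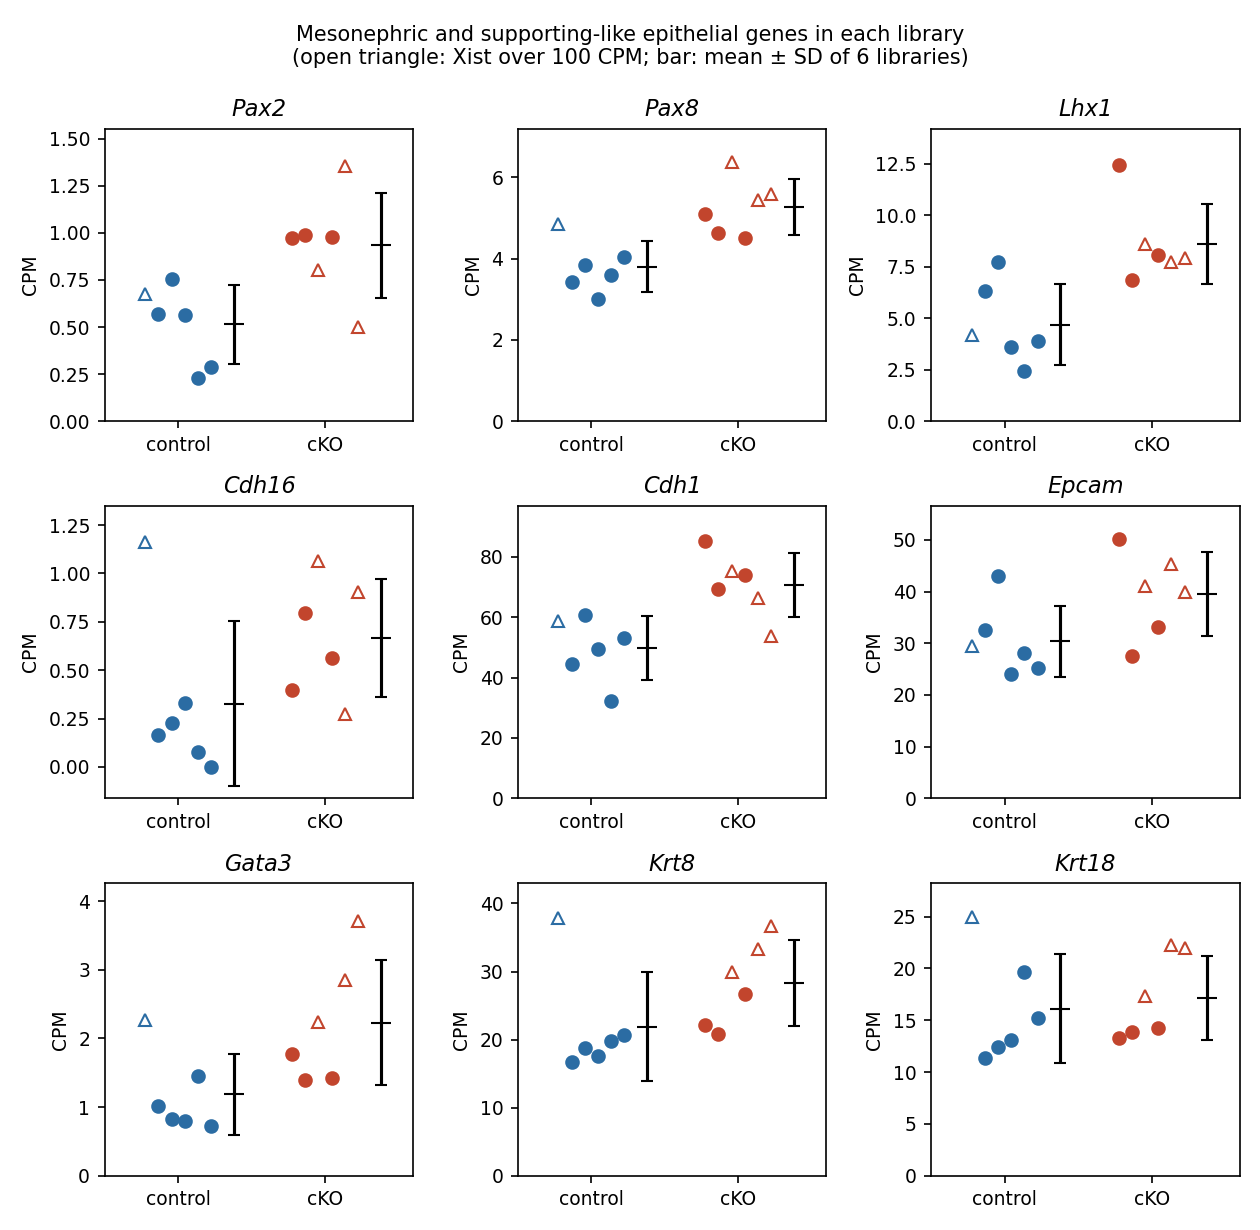
CPM of the 9 genes in each of the 12 libraries, control in blue and cKO in red, one panel per gene with its own axis; open triangles are the 4 libraries with Xist over 100 CPM and black bars are the mean ± SD of 6 libraries. Cdh1 has 5 cKO libraries above the highest control library, and the open triangles are the highest symbols for Gata3 and Krt8.

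Levels were compared between genes per kilobase of transcript, in control testes. Epcam stood at 14.9 ± 3.37 CPM per kb (SD, n = 6), Cdh1 at 11.2 ± 2.36, Krt18 at 11.2 ± 3.65 and Krt8 at 11.2 ± 4.06, and the ranges of these neighbours overlapped. Pax8 at 1.48 ± 0.245 and Lhx1 at 1.22 ± 0.508 lay below every control library of Krt8 and overlapped each other, and Gata3 at 0.368 ± 0.185 overlapped Lhx1. Pax2 (0.118 ± 0.0483) and Cdh16 (0.112 ± 0.146) were the lowest, and the highest Pax2 library lay below the lowest Gata3 library, while control library 1 took Cdh16 into the Gata3 range. Together the 9 genes made up 107 to 164 CPM of a control library and 146 to 191 CPM of a cKO library, of which Cdh1 and Epcam, both also germ cell genes, took 53.7% to 70.7%.

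The label was checked against other genes of mesonephric tubules and ducts. Of the 22 genes of that list, 6 lacked enough counts in enough libraries to be tested, among them Sim1, Wnt9b, Calb1 and Hnf4a. Wnt9b, the duct signal that induces tubules, did not exceed 0.469 CPM. Hnf4a reached 1.36 CPM in its highest library, and Sim1 stayed under 1 CPM. Pax2 and Cdh16, which of the 9 genes are the ones most particular to nephric epithelium, averaged under 1 CPM as well. Other genes of the list were well expressed, with means over 12 libraries of 97.7 CPM for Etv5, 83.0 CPM for Tfcp2l1, 42.6 CPM for Emx2 and 29.8 CPM for Ret, which are also known from germ cells or, for Emx2, from the gonadal surface. The levels therefore do not settle how much RNA of the set came from mesonephric epithelium. Calb1, a calcium-binding protein of the duct, was the exception in single libraries, at 27.6 CPM in control library 1 and 7.01, 4.07 and 2.85 CPM in cKO libraries 3, 5 and 6, the libraries with high Xist, and at 0.361 CPM or less in the other 8.

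Among the transcription factors, Pax8 and Lhx1 rose. Pax8 (chr2:24420551-24475599, minus strand), a paired-box factor of nephric epithelium, thyroid and supporting-like cells, ran from 3.01 over a median of 3.72 to 4.84 CPM in control libraries and from 4.51 over 5.26 to 6.37 CPM in cKO libraries. The highest control library was library 1, and 4 of 6 cKO libraries lay above it. The change was 0.47 on the log2 scale (95% interval 0.18 to 0.77; edgeR adjusted p = 0.0488), just past the threshold. It kept the call without control library 1 or without cKO library 2, and lost it without any one of the other 10, with an adjusted p of up to 0.110.

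Lhx1 (chr11:84519379-84525534, minus strand), a LIM-homeodomain factor needed for the nephric duct and later found in spermatogonial stem cells, ran from 2.45 over a median of 4.04 to 7.74 CPM in control libraries. In cKO libraries it ran from 6.88 over 7.98 to 12.4 CPM, with the highest value in cKO library 1 and the next at 8.59 CPM. Control library 3, at 7.74 CPM, reached into the cKO range, control library 2, at 6.30 CPM, lay just below it, and 4 of 6 cKO libraries lay above all controls. The change was 0.85 (0.34 to 1.35; adjusted p = 0.0418). It passed the test without control library 1, 2 or 3 or without cKO library 2, and without any one of the other 8 it did not, with an adjusted p of up to 0.0956.

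Upstream sequence was looked at for the called genes, because genes that move together are often compared by their promoters. RefSeq (GRCm38.p6, the build of the counts, mm10) gave a promoter for 7 of the 9 genes, all but Cdh1 and Cdh16. The 250 bases before the start are shown, 5′ to 3′ on the strand of the gene, with matches in capitals. The motifs searched, on both strands, were the nuclear receptor half-site AGGTCA of many receptors, the epithelial E-box written CAGGTG, the GC box written GGGCGG, which SP1 is known to bind, and the TATA box written TATAAA. They are held, as such or as the reverse complement, by 14.0%, 17.2%, 32.7% and 12.4% of 32851 promoters of this length.
Pax8 (chr2:24475600-24475849, minus strand): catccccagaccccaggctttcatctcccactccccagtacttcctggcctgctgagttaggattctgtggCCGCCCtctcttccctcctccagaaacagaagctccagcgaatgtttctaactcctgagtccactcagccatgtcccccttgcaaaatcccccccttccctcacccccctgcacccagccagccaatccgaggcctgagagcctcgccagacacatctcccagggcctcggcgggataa
Lhx1 (chr11:84525535-84525784, minus strand): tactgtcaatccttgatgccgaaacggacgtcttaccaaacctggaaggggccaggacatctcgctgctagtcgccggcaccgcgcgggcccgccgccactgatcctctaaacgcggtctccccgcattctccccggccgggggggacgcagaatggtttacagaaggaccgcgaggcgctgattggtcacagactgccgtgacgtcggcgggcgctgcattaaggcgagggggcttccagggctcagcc
Pax8 held 1 GC box, 179 bases before its start, and Lhx1 held none of the 4 motifs in this window. The Lhx1 window held 26 CpG dinucleotides and that of Pax8 6, which is also the median of all promoters. A match is a run of letters and not a measured binding site.

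Pax2 (chr19:44757394-44837871, plus strand), the other paired-box factor of the nephric lineage, was close to the counting limit, at 0.230 over a median of 0.567 to 0.754 CPM in control libraries and 0.502 over 0.976 to 1.36 CPM in cKO libraries. In cKO testes 5 of 6 libraries lay above all controls and cKO library 6 lay among them. The change of 0.64 (0.04 to 1.24) did not pass the test (adjusted p = 0.173). Pax2 also passed no test in its 20 alternative fits, where the change stayed between 0.53 and 0.83.

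Gata3 (chr2:9857078-9878600, minus strand), a zinc-finger factor needed for the growth and guidance of the nephric duct, ran from 0.723 over a median of 0.923 to 2.27 CPM in control libraries and from 1.39 over 2.00 to 3.72 CPM in cKO libraries. Its 4 highest libraries were cKO 6, cKO 5, control 1 and cKO 3, which are those with high Xist. The change was 0.87 (0.18 to 1.56; adjusted p = 0.115). Without control library 1 it was 1.22 and passed the test (adjusted p = 0.0139), in a fit that called 9.44% of all genes higher. It was 0.69 in the low-Xist libraries (adjusted p = 0.0971), 0.62 with Xist as a covariate (adjusted p = 0.0657) and 0.62 without cKO library 6 (adjusted p = 0.258), and passed in none of these.

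Of the adhesion genes, Cdh1 rose. Cdh1 (chr8:106603350-106670247, plus strand) encodes E-cadherin, the cadherin of epithelial junctions that fetal germ cells also carry. It ran from 32.1 over a median of 51.4 to 60.6 CPM in control libraries and from 53.8 over 71.6 to 85.3 CPM in cKO libraries. Only cKO library 6, at 53.8 CPM, lay within the control range. The change was 0.50 (0.20 to 0.81; adjusted p = 0.0419). The call held without control library 1, 3 or 5 or without cKO library 6, and was lost without any one of the other 8, with an adjusted p of up to 0.0936.

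Epcam (chr17:87635979-87651127, plus strand), an adhesion molecule of simple epithelia and germ cells, ran from 24.1 over a median of 28.8 to 43.0 CPM in control libraries and from 27.6 over 40.6 to 50.1 CPM in cKO libraries. Control library 3 lay above 4 of the 6 cKO libraries. The change of 0.37 (0.03 to 0.70) did not pass the test (adjusted p = 0.162). Cdh16 (chr8:104601915-104624396, minus strand), the kidney-specific cadherin of tubule and duct epithelium, gave 0 to 43 counts in a control library and 2 to 54 in a cKO library. It had no count in control library 6, which allows up to 0.434 CPM there (3 counts, for counting error only), and its highest level was 1.16 CPM in control library 1. The other 5 control libraries reached 0.330 CPM, and the cKO libraries ran from 0.271 over a median of 0.678 to 1.06 CPM. The interval of its change, -0.32 to 1.94 around 0.81, spans 0 (adjusted p = 0.352). The change was 1.48 with limma-voom, and 1.52 with the germ cell list as a covariate, where it passed the test (adjusted p = 0.0311).

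Krt8 (chr15:101996711-102004342, minus strand) and Krt18 (chr15:102028216-102032026, plus strand) are the type II and type I keratins that pair into the filaments of simple epithelia, and they lie beside each other on chromosome 15. Their upstream sequences are shown because both genes were highest in control library 1 and high in cKO libraries 5 and 6. The likeness of the pair was partial, with a Pearson correlation of log2 CPM of 0.84 over 12 libraries and 0.31 over the low-Xist libraries.
Krt8 (chr15:102004343-102004592, minus strand): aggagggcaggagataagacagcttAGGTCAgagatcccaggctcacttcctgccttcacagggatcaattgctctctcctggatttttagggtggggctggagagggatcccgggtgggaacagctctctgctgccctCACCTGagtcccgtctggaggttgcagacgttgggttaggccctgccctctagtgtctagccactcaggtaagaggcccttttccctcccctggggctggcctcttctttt
Krt18 (chr15:102027966-102028215, plus strand): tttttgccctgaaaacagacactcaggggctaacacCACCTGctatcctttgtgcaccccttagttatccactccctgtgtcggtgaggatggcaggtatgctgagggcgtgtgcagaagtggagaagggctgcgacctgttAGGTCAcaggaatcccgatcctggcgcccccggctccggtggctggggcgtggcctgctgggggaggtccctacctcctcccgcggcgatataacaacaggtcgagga
Both windows held the half-site AGGTCA, 225 bases before the start of Krt8 and 108 bases before that of Krt18, and both held the E-box as its reverse complement, at 111 and 214 bases. Of the other genes with a promoter, Epcam held 2 E-boxes and a GC box, Gata3 2 GC boxes, and the 3 starts of Pax2 together 2 GC boxes and an E-box, so that the AGGTCA letters were found in the windows of the keratin genes alone among the 7 genes.

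Krt8 ran from 16.6 over a median of 19.3 to 37.9 CPM in control libraries and from 20.8 over 28.4 to 36.8 CPM in cKO libraries. Control library 1 was the highest of all 12, and the other 5 control libraries did not exceed 20.7 CPM. The change was 0.36 (-0.07 to 0.79; adjusted p = 0.275), and without control library 1 it was 0.60 and passed the test (adjusted p = 0.0114). Krt18 ran from 11.3 over a median of 14.1 to 24.9 CPM in control libraries and from 13.2 over 15.8 to 22.3 CPM in cKO libraries, again with control library 1 the highest of 12. Its change was 0.08 (-0.35 to 0.52; adjusted p = 0.825), and its direction turned in the low-Xist libraries (-0.03). The ratio of Krt8 to Krt18 counts was 1.37 ± 0.193 in control and 1.66 ± 0.146 in cKO libraries (SD, n = 6), with overlapping ranges.

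**Figure D2:**
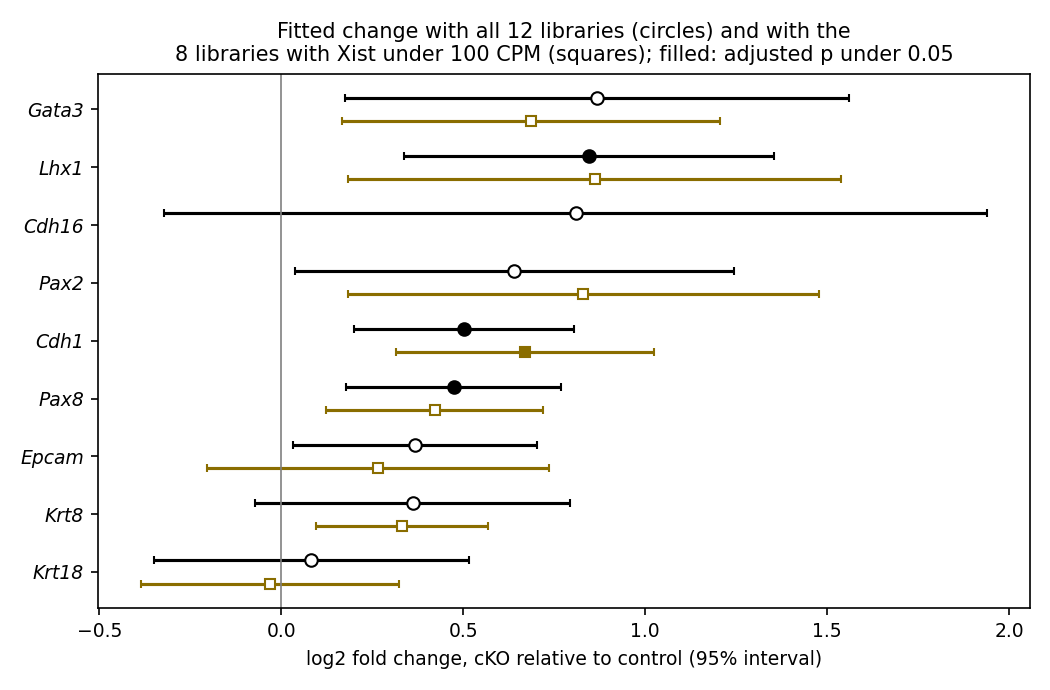
Fitted log2 fold change of each gene in cKO relative to control testes with its 95% interval, from all 12 libraries (black circles) and from the 8 low-Xist libraries (brown squares); filled symbols have an adjusted p under 0.05. Lhx1, Cdh1 and Pax8 are filled with 12 libraries and Cdh1 alone with 8; Cdh16 had too few counts to be fitted with 8.

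The libraries with high Xist changed the picture by gene. Gata3 and Krt8 were higher in all 4 of them than in any of the other 8, which 5.44% of all genes tested were. Gata3 ran from 2.24 to 3.72 CPM in these libraries and from 0.723 to 1.77 CPM in the rest. Krt8 ran from 29.9 to 37.9 CPM against 16.6 to 26.8 CPM. Cdh1 was at 65.1 ± 10.8 CPM (SD, n = 3) in the high-Xist and at 76.2 ± 8.27 CPM (SD, n = 3) in the low-Xist cKO libraries, with overlapping ranges. In the same 4 libraries, 8 of 9 genes of a list of ovarian supporting cells and 7 of 15 meiosis genes were above the other 8 libraries. The summed level of the ovarian list was 196 to 384 CPM there and 92.9 to 110 CPM in the rest. Whether the source of these transcripts has a part in the levels of Gata3 and Krt8 was not tested.

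Without these 4 libraries, 1103 genes (7.08%) were called, 3.68% in the higher direction, and of the 9 genes Cdh1 alone was called. It ran from 32.1 to 60.6 CPM in 5 control libraries and from 69.3 to 85.3 CPM in 3 cKO libraries, a change of 0.67 (0.32 to 1.02; adjusted p = 0.0318). The changes of Lhx1 (0.86) and Pax8 (0.42) were close to those with 12 libraries, but their adjusted p-values were 0.107 and 0.0808. Pax2, Pax8, Cdh16, Cdh1 and Krt8 were higher in all 3 cKO libraries than in all 5 control libraries, 5 of 9 genes where 13.7% of all genes were. With Xist as a covariate in all 12 libraries, Pax8, Lhx1 and Cdh1 again passed the test, and the change of Krt8 was 0.19 (adjusted p = 0.262). Leaving out control library 1 alone gave calls for Pax8, Lhx1, Cdh1, Gata3 and Krt8, 5 of 8 genes tested, and 9.44% of all genes were then called higher.

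Germ cell genes were examined beside these results because Cdh1, Epcam and Lhx1 are shared with germ cells. Of 18 germ cell genes, 1 rose, none fell and the median change was 0.07. In the low-Xist libraries 2 were called higher, Sox2 and Nanos2. The gene that rose with 12 libraries was Sox2, a pluripotency factor of fetal germ cells, from 24.2 ± 5.20 to 39.5 ± 3.53 CPM, with a change of 0.70 (adjusted p = 0.0039). The summed level of the list was 1989 to 3085 CPM in control libraries and 2541 to 2867 CPM in cKO libraries, and its most abundant genes, Dazl and Ddx4, had changes of 0.32 and 0.08 (adjusted p = 0.203 and 0.668). With the mean of this list as a covariate, Lhx1, Cdh1 and Pax8 were called with Cdh16, Gata3 and Krt8, 6 of 9 genes, while 8.91% of all genes were called higher. Of 15 meiosis genes, Meioc alone passed the test, at 5.65 to 15.6 CPM in control libraries and 7.27 to 135 CPM in cKO libraries, and the median change of the list was 0.80. In the low-Xist libraries Meioc was again called higher (0.54; adjusted p = 0.0463) but that median was 0.00, and the summed level of the list was 1692 and 1691 CPM in cKO libraries 5 and 6 against 445 to 713 CPM in the other 4 cKO libraries.

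Of the 16 tested genes of the duct and tubule list, 4 rose and none fell, and their median change was 0.05. The 4 were Ret, the receptor of GDNF on the duct tip, its co-receptor Gfra1, and Etv4 and Etv5, the ETS factors induced by RET signalling in the duct. These 4 genes are also those of RET signalling in spermatogonial stem cells. Ret rose from 21.6 ± 6.22 to 38.0 ± 5.48 CPM, by 0.81 (adjusted p = 0.0125). Etv4 rose from 10.7 ± 2.25 to 19.1 ± 2.32 CPM, by 0.85 (adjusted p = 0.0018), and Etv5 from 76.3 ± 17.2 to 119 ± 11.8 CPM, by 0.64 (adjusted p = 0.0076). All cKO libraries lay above all control libraries for these 3 genes. Gfra1 rose from 3.03 ± 0.424 to 4.53 ± 0.838 CPM, by 0.61 (adjusted p = 0.0221), with cKO library 5 in the control range. All 4 also passed the test in the low-Xist libraries, where Emx2, a urogenital homeobox gene, was called lower. The duct and tubule genes Lrp2, Cubn and Pkhd1, of absorptive and ciliated tubule epithelium, had changes of -0.42, 0.00 and -0.51, and Wnt11, like Ret a gene of the duct tip, had one of -0.19, and none of these passed.

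**Figure D3:**
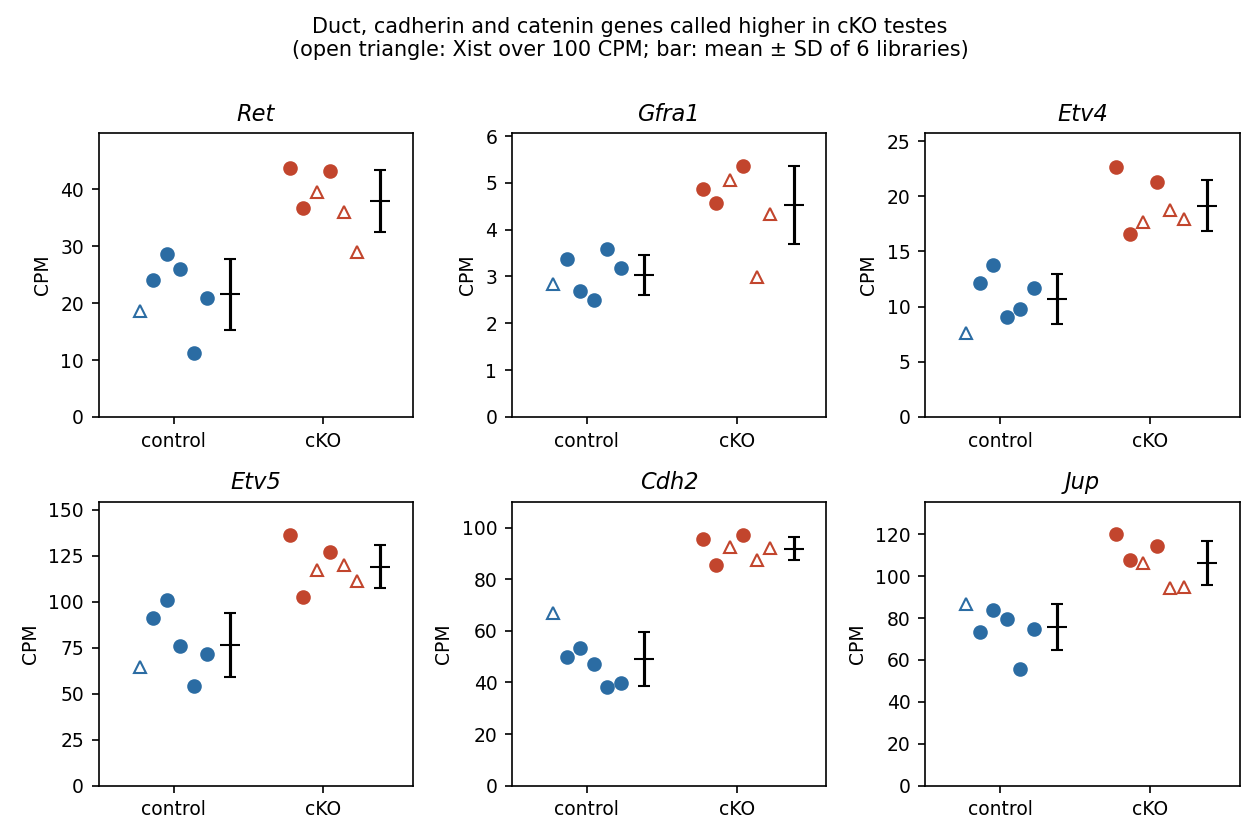
CPM of Ret, Gfra1, Etv4 and Etv5 of the duct list and of Cdh2 and Jup of the cadherin and catenin list in each library, in the symbols used for the 9 genes (open triangles: Xist over 100 CPM; bars: mean ± SD of 6 libraries). For Ret, Etv4, Etv5, Cdh2 and Jup every cKO library is above every control library, with open triangles among the filled symbols.

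Of 11 further genes of rete testis and supporting-like cells, Cdh2 and Ecm1 rose, Wnt4 fell and the median change was 0.08. Cdh2, N-cadherin, rose from 49.1 ± 10.5 to 91.8 ± 4.48 CPM, by 0.89 (adjusted p = 0.0004), with 85.5 CPM in the lowest cKO library and 67.0 CPM in the highest control library. Ecm1, a matrix protein, rose from 17.0 ± 3.23 to 24.1 ± 3.58 CPM (0.51). Wnt4, a signal of nephric tubules and of the ovary, fell from 67.7 ± 21.1 to 39.9 ± 9.53 CPM (-0.77), and it was highest in control library 1, at 110 CPM. In the low-Xist libraries, Cdh2 was the gene of this list called higher, and Wnt4, Emx2 and Wt1 were called lower. The methods name the Cre as a targeted allele of Wt1, which the cKO testes carried and the controls did not. The change of Wt1 cannot be told apart from an effect of that allele.

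Among cadherins and catenins, Cdh2 and Jup rose and Cdh11 fell, 3 of 10 genes, with a median change of 0.03. Jup, plakoglobin, which links cadherins to the desmosome, rose from 75.6 ± 10.9 to 106 ± 10.3 CPM (0.49; adjusted p = 0.0075). Cdh11, the cadherin of mesenchyme, fell from 398 ± 35.4 to 274 ± 47.8 CPM (-0.54; adjusted p = 0.0066). Thus Cdh1, Cdh2 and Jup were higher and Cdh11 lower, and these calls of Cdh2, Jup and Cdh11 were also made in the low-Xist libraries. Of 25 tested genes of simple epithelium and its junctions, Dsp, Tjp3, St14 and Cldn6 rose, none fell and the median change was 0.16. Dsp, desmoplakin, rose from 58.9 ± 10.4 to 97.5 ± 15.1 CPM (0.72; adjusted p = 0.0032) without overlap of the groups. Tjp3 of the tight junction, the membrane protease St14 and the claudin Cldn6 were low, at 2.10, 3.26 and 0.494 CPM in cKO testes. In the low-Xist libraries Dsp and St14 were called, and Tjp3 and Cldn6 were not.

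The remaining lists were read in the same way. None of 12 tested relatives of the 9 genes passed, with Gata4 and Lhx9 the most abundant (0.06 each), but Gata6 was called higher in the low-Xist libraries, and in some other alternatives 1 or 2 relatives were called higher or 1 was called lower. Of the mesonephric mesenchyme, 1 of 6 genes passed, Osr1, an early factor of intermediate mesoderm, which fell from 6.73 ± 1.30 to 3.78 ± 0.616 CPM (-0.81), and the median was -0.45. Cited1 of the kidney nephron list fell (-0.51), 1 of 6 genes. Of 10 surface epithelium genes Pdgfc fell (-0.57) and Msln, mesothelin, passed at 0.92 (adjusted p = 0.0472). The call of Msln was lost in the low-Xist libraries (0.61; adjusted p = 0.19), with Xist as a covariate, with no filter on low counts, and without any one of control libraries 2, 3, 4 and 5 or cKO libraries 1, 3, 4, 5 and 6. The 12 Sertoli genes included 1 that fell, Etd (-1.22). Wnt4, which fell, was the 1 of 9 ovarian supporting genes that passed with 12 libraries. In the low-Xist libraries Bmp2, Foxl2, Fst, Lgr5 and Lypd6 were called higher, 5 of 9, where 3.68% of all genes were. These 5 genes did not exceed 13.5, 1.30, 5.39, 18.8 and 8.71 CPM there. The summed list, which includes Wnt4, was at 95.4 to 110 CPM in low-Xist control and 92.9 to 100 CPM in low-Xist cKO libraries. The median of that list was 0.62 in either fit. Of 4 adrenal cortex genes the ACTH receptor Mc2r rose (0.81), while the sympathoadrenal genes Chga and Th (0.75 and -0.41) and the lymphoid genes Lck and Cd2 (-0.39 and -0.65) did not pass, nor did the third tested gene of either list. With single libraries left out, the genes called higher numbered 1 to 2 in the rete list, 2 to 4 in the simple epithelium list, 0 to 4 in the meiosis list and 0 to 6 in the ovarian list, and those called lower 0 to 3 in the rete list and 0 to 1 in the kidney list.

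**Figure D4:**
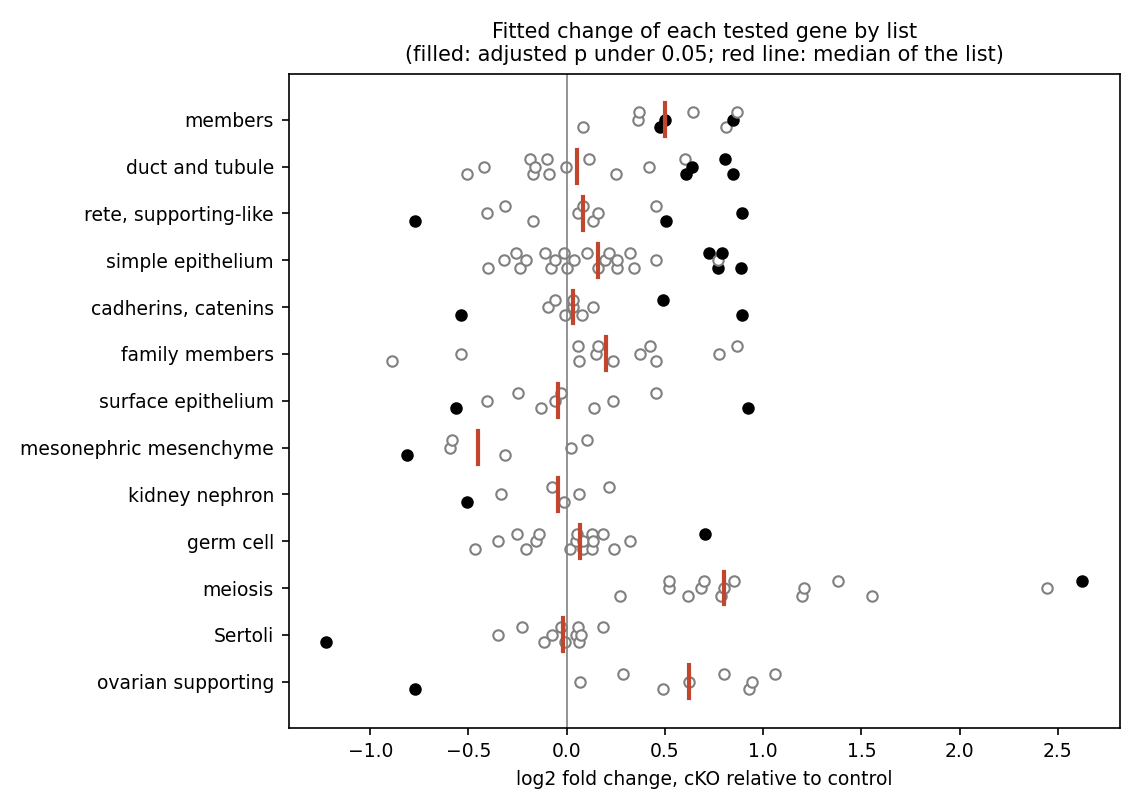
Fitted log2 fold change of each tested gene, cKO relative to control, by list; each point is a gene, filled points have an adjusted p under 0.05 and the red line is the median of the list. The 9 genes all lie above 0 with a median of 0.50, the meiosis list has a median of 0.80, which is 0.00 without the high-Xist libraries, and the mesonephric mesenchyme list one of -0.45; the sympathoadrenal, adrenal cortex and lymphoid lists are not drawn.

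The genes most like each of the 9 were found by the Pearson correlation of log2 CPM over the 12 libraries, among tested genes that averaged 1 CPM or more, as a description of libraries that differ in genotype and depth, both of which enter the correlation. The genes were picked for a high correlation, and values in the low-Xist libraries use a subset of the same libraries. Such values are therefore no independent check. For Lhx1 the genes were Prdm1 (0.98), a repressor needed for germ cell specification, Igsf21 (0.97) and Etv5 (0.96), all called higher in cKO testes. Their values were 0.98, 0.97 and 0.97 in the low-Xist libraries. For Epcam they included Wnt3 (0.93) and Prdm14 (0.91), another germ cell factor. For Cdh1 they were Vars (0.98), Igf2bp3 (0.97) and Trim71 (0.96). For Pax8 they were Ube2e1 (0.97), Gdi2 (0.93) and Brinp1 (0.93), with values of 0.93, 0.89 and 0.92 in the low-Xist libraries. Of these, Ube2e1 and Brinp1 were called higher.

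Without the high-Xist libraries the likeness was lower for the keratins, and also for Pax8, Gata3 and the top gene of Cdh16. Krt8 was most like Caprin2, Parvb and Lrrn1 (each 0.97 over 12 libraries, and 0.93, 0.85 and 0.84 over 8). Krt18 was most like Fgf11, Kitl and Ptpn4 (0.96, 0.95 and 0.94 over 12, and 0.89, 0.78 and 0.79 over 8), where Kitl is the KIT ligand made by Sertoli and granulosa cells. Gata3 was most like Fam81a, Gkap1 and Arel1 (0.973, 0.948 and 0.943 over 12, and 0.960, 0.905 and 0.938 over 8). For Pax2 the genes were Afg3l1, Top3a and Cbl (0.94, 0.94 and 0.93). For Cdh16 they were Cptp, Naif1 and Il3ra (0.92, 0.91 and 0.91 over 12, and 0.86, 0.92 and 0.92 over 8). The counts of Pax2 and Cdh16 were low and leave the order of their libraries uncertain.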

How the data were processed

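RNA of 12 pools of E14.5 testes was sequenced. According to the methods and the labels, the authors trimmed read pairs with Trim Galore 0.6.7, aligned them to mm10 with STAR 2.5 and counted them by strand on RefSeq Curated gene models with featureCounts of Subread 1.5.0-p1. They deposited raw counts per gene, which were neither normalised nor filtered. All 12 columns were used, grouped by the genotype in the labels. Of the symbols, 2 stand on 2 lines each, and these lines were kept apart.

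Counts were analysed here in R 4.3.3 with edgeR 4.0.16 (TMM scaling, filterByExpr at 10 counts per library and 15 in total, glmQLFit and glmQLFTest without covariate, Benjamini-Hochberg adjustment over 15572 genes, threshold 0.05). Intervals are 95% intervals of the fitted log2 fold change. CPM used TMM-scaled library sizes, and log2 CPM for likeness used a prior count of 2. CPM per kb used the length of 1 transcript per gene. Figures were drawn with matplotlib 3.10.9. The script of the test was tested on simulated data.

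The 9 genes and the lists (duct and tubule, rete and supporting-like, simple epithelium, cadherins and catenins, relatives of the 9 genes, kidney nephron, surface epithelium, mesonephric mesenchyme, germ cell, meiosis, Sertoli, ovarian supporting, sympathoadrenal, adrenal cortex and lymphoid) were chosen with earlier results of these data known, as was the division by Xist. Named were the 9 genes, the genes of a list past the threshold or, where none passed, its 2 most abundant, the 3 genes most like each of the 9, Xist and Nr2f2. Other list genes were named with their values known. Some results covered by this rule are not reported here.

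Alternatives were RLE scaling, no filter on low counts, a filter of 1 CPM in 6 libraries, DESeq2 1.42.0 (the tool of the authors) with its defaults, limma-voom (limma 3.58.1), the replicate number as a block, each library left out in turn, the 8 libraries with Xist under 100 CPM, and Xist or the germ cell list as a covariate. Replicates differed by more than sampling noise, so no library was counted as a duplicate. Precision is set by the spread between pools except for Pax2 and Cdh16, whose counts were low, and floors cover counting error only.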

Additional observations from a re-analysis of the deposited data

Results flagged for a closer look

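In 3 of 20 groups of 6 libraries examined, 1 library lay far from the other 5 of its group, by Dixon's gap test at the 95% level, and chance alone would set apart about 1 in 20 groups. Lhx1 was at 12.4 CPM in cKO library 1, and at 6.88 to 8.59 CPM in the other 5 cKO libraries. Krt8 was at 37.9 CPM in control library 1, and at 16.6 to 20.7 CPM in the other 5 control libraries. Cdh16 was at 1.16 CPM in control library 1, and at 0 to 0.330 CPM in the other 5. Control library 1 is the control library with high Xist, and cKO library 1 is not among the libraries with high Xist.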

How the results depend on the processing

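The count of the 9 genes called was 3 with RLE scaling, with a filter of 1 CPM in 6 libraries (7 genes tested), with DESeq2, with limma-voom and with Xist as a covariate. It was 0 with no filter on low counts, 1 without the 4 libraries with Xist over 100 CPM, 6 with the germ cell list as a covariate and 0 to 5 with single libraries left out. No call was made without control library 4 or 6 or cKO library 1, 3, 4 or 5. Over all genes the 1266 calls became 1919 with DESeq2 and 2669 with the germ cell covariate, and 816 to 3106 with single libraries left out, the highest without control library 1. The cause of these shifts was not tested. Pax8 was called in 8 of 21 alternatives (adjusted p 0.00858 to 0.110), Lhx1 in 11 (0.00671 to 0.107) and Cdh1 in 12 (0.0094 to 0.0936). All alternative changes were above 0 for Pax2, Pax8, Lhx1, Cdh16, Cdh1, Epcam, Gata3 and Krt8. Krt18 reversed 4 times, to -0.0035 without control library 2, -0.010 without cKO library 6 (from there to 0.26 over the single libraries left out), -0.032 without the high-Xist libraries and -0.10 with Xist as a covariate, and it passed no test.

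The replicate numbers gave little sign of pairing, but the check cannot settle it. Of 6 same-numbered pairs, 2 correlated above 0.1. By row, 0 control libraries correlated best with the cKO library of their number, while cKO library 4 correlated best with control library 4 (0.24). The libraries with high Xist enter these correlations, as with control library 1 and cKO library 3 (0.45). With the replicate number as a block, 2 of the 9 genes were called, Lhx1 and Cdh1, Pax8 was not (adjusted p = 0.0673), and 931 genes were called in all. In the lists, the duct genes called higher numbered 3 or 4 in every alternative, the cadherin and catenin genes 2, and the meiosis genes 0 to 9. A duct gene was called lower, 1 each time, with DESeq2, without control library 1, in the low-Xist libraries and with Xist as a covariate. Depth limits Cdh16, which some alternatives could not test.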
